A study of Homo sapiens with 9 samples.

Results

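The respiratory chain and ATP synthase of the inner mitochondrial membrane are built from subunits encoded by 2 genomes. The genes described here are the protein-coding genes of those subunits: the 13 mRNAs of the mitochondrial genome, and the nuclear genes of complex I (NDUFA, NDUFB, NDUFC, NDUFS and NDUFV families), complex II (SDHA to SDHD), complex III (CYC1 and the UQCR genes), complex IV (COX4 to COX8) and complex V (the ATP5F, ATP5M and ATP5P genes). They were chosen by symbol alone, with pseudogenes, antisense and readthrough genes and assembly factors left out, which gave 99 of the 41041 genes in the table, 13 mitochondrial and 86 nuclear. By complex these were 44, 4, 11, 20 and 20 genes for complexes I to V. NDUFA4 and its paralog NDUFA4L2 carry complex I names but are counted with complex IV, where the NDUFA4 protein resides. COX4I2 and COX6A2 were not analysed here.

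Complex I takes electrons from NADH and complex II takes them from succinate. Both pass them through coenzyme Q to complex III, and cytochrome c carries them to complex IV, which reduces oxygen to water. Complexes I, III and IV pump protons, and complex V, the ATP synthase, uses the proton gradient to make ATP. Complex II is the only one with no mitochondrially encoded subunit. In mitochondria both DNA strands are transcribed as long precursors that are cut at the tRNAs between the coding regions. The nuclear genes are transcribed one by one, and their proteins are imported.

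Poly(A) RNA was sequenced from SW480, an established human colorectal cancer line, and every group was kept at 1% oxygen for 48 h. The control group received no compound, the SFN group received sulforaphane, an isothiocyanate of cruciferous vegetables, at 25 µM, and the SFN+5-FU group received sulforaphane with the pyrimidine analogue 5-fluorouracil. No source used here states the doses of the SFN+5-FU group. Each group has 3 libraries, described as biological replicates, and there is no group in normal oxygen and none on 5-FU alone, so an effect of oxygen on these genes was not measured. Values are FPKM, mapped fragments scaled to transcript length and to the library total, and the number of fragments behind them is unknown.

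The library labelled SFN replicate 2 stood apart from its group. Over the 12662 genes tested it correlated at 0.993 with each SFN+5-FU library on the log2(FPKM + 1) scale, at 0.963 with SFN replicate 1 and at 0.968 with SFN replicate 3 (Pearson, across genes, which are not independent). It was kept in its labelled group, and the main counts are also given without it. The epithelial markers EPCAM, KRT8, KRT18, KRT19 and CDH1 summed to between 1695 and 2576 FPKM. The colon markers summed to between 12.3 and 22.8 FPKM: CDX2 was at 10.7 to 16.3, VIL1 at 0.79 to 3.98 and LGALS4 at 0.52 to 2.44. CDX1 and CEACAM5 stayed at or below 0.4 and 0.15 FPKM. Some of these markers moved with treatment: KRT19 was at 720.0 to 767 FPKM in control and 421 to 435 in SFN+5-FU, CDH1 at 12.7 to 15.4 and 4.65 to 5.82 FPKM, and KRT8 and KRT18 were lower in all SFN+5-FU libraries than in control. The leukocyte and macrophage marker CD68 was at 0.48 to 0.61 FPKM in control, 2.05 to 5.57 in SFN and 5.59 to 8.96 in SFN+5-FU. Their part in the results was not tested. Fibroblast, leukocyte and endothelial lists summed to at most 2.03, 10.1 and 0.92 FPKM, and PTPRC and CDH5 were listed at 0 in all libraries.

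In the main fit, most mitochondrially and most nuclear encoded subunit mRNAs differed from control in opposite directions in SFN+5-FU, a pattern not clear in SFN. With mitochondrial transcripts left out of the total, or with quantile normalization, fewer nuclear genes rose, as given below. In SFN+5-FU, 11 of the 13 mitochondrial mRNAs fell and none rose, with a median log2 fold change of -0.49, while 50 of the 80 tested nuclear genes rose and 8 fell, with a median of 0.25. Over all 12662 genes tested, 38.3% rose and 28.0% fell in that comparison, and the median was 0.10. In SFN, 34 of the 80 nuclear genes rose and 3 fell (median 0.20), against 27.5% and 22.5% of all genes (median 0.05). Only MT-CO1 and MT-CO2 fell among the mitochondrial mRNAs in SFN (median -0.15). Without SFN replicate 2, 40 nuclear genes rose and 3 fell in SFN (median 0.19), and of the mitochondrial mRNAs none fell and MT-ND3 rose (median -0.05), against 30.0% and 26.9% of all genes. The 7 genes that passed in SFN only without that library were MT-ND3, NDUFV2, SDHC, UQCRC2, UQCRFS1, COX5A and ATP5F1B. In SFN+5-FU its removal left all 69 calls and added 9: NDUFB7, NDUFS7, NDUFS8 and ATP5ME among the rises, and MT-ND3, NDUFA10, SDHC, UQCRC2 and COX7A2L among the falls. The nuclear counts there became 54 and 12, against 43.4% and 31.3% of all genes. Here rose and fell mean an adjusted p under 0.05 in limma, and fold changes are on the log2(FPKM + 1) scale. Both comparisons with control share the same control libraries. In bulk RNA, fewer transcripts in each cell cannot be told apart from fewer cells that carry them.

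**Figure D1:**
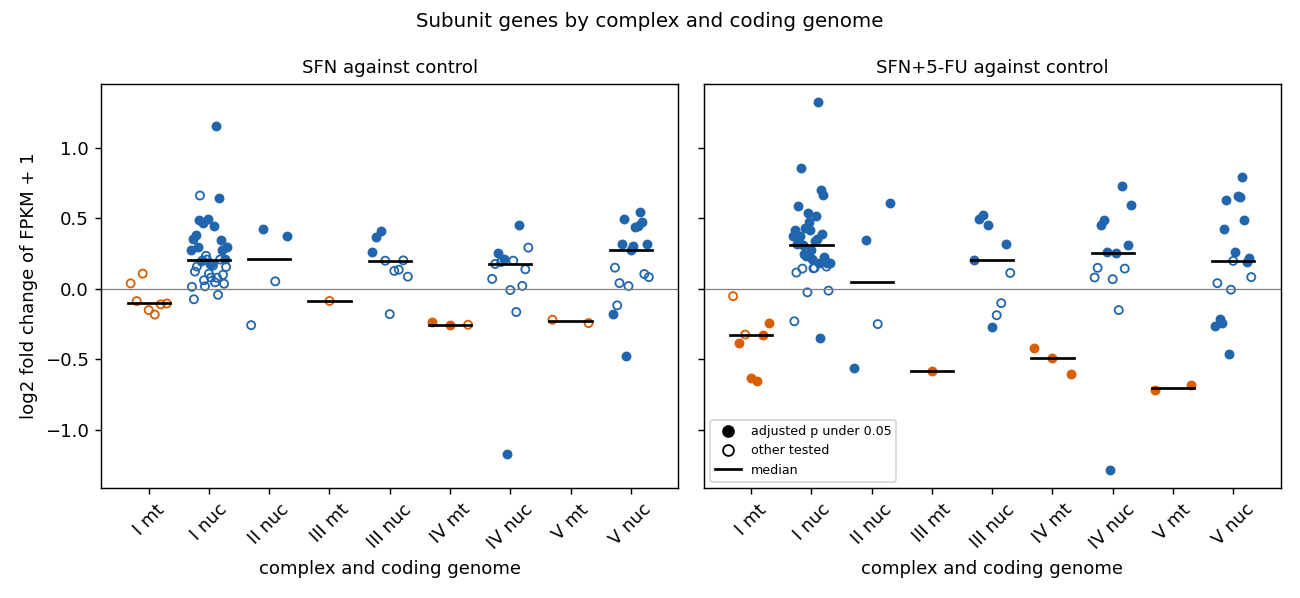
Each point is a tested subunit gene, placed by complex and coding genome (mt, mitochondrial; nuc, nuclear), with its log2 fold change of FPKM + 1 in SFN (left) and SFN+5-FU (right) against control on the y axis. Filled points passed an adjusted p of 0.05, open points did not, and bars mark the median of each column. With SFN+5-FU the mitochondrial columns lie below 0, and most nuclear complex I genes lie above it.

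The 13 mitochondrial mRNAs held 20.8, 20.5 and 21.9% of the summed FPKM in the control libraries. They held 20.5, 15.9 and 19.3% in SFN replicates 1, 2 and 3, and 15.6, 13.6 and 15.5% in the SFN+5-FU libraries. SFN replicate 2 is thus next to the SFN+5-FU libraries, which lie below all control libraries. The 86 nuclear genes together held between 0.98 and 1.01% in control, 1.09 to 1.16% in SFN and 1.18 to 1.22% in SFN+5-FU, with no overlap between the groups. The ratio of the mitochondrial to the nuclear sum was 21.1 ± 0.604 in control, 16.3 ± 2.25 in SFN and 12.4 ± 0.878 in SFN+5-FU (mean ± SD, n = 3), with 17.6, 13.7 and 17.7 in SFN replicates 1, 2 and 3. The exact two-sided permutation p for this ratio was 0.1 in all 3 comparisons, the lowest that groups of 3 libraries can give. That p cannot fall under 0.05, so the test cannot decide whether the groups differ. Since mitochondrial mRNAs take so much of the library, their share also sets the FPKM of the other genes. With all mitochondrial transcripts left out of the total, 38 nuclear genes rose and 11 fell in SFN+5-FU (median 0.15), against 31.9% and 32.6% of all genes (median 0.01), and 12 mitochondrial mRNAs fell (median -0.60). In SFN, 27 nuclear genes rose and 7 fell on that scale (median 0.13), against 22.9% and 26.4% of all genes. On it 12 member calls were lost and 4 gained in SFN+5-FU, and 7 were lost and 4 gained in SFN. Those lost included ATP5MF, ATP5PF and ATP5PD in SFN+5-FU, and NDUFA8, COX5B and ATP5ME in SFN. Quantile normalization, which gives equal ranks equal values and so holds the top-ranked mitochondrial mRNAs nearly fixed, left 36 nuclear genes higher and 12 lower in SFN+5-FU and 4 mitochondrial mRNAs lower, against 35.3% and 29.8% of all genes. In every library a mitochondrial mRNA ranked first in FPKM, and all 13 lay within the first 38 genes.

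**Figure D2:**
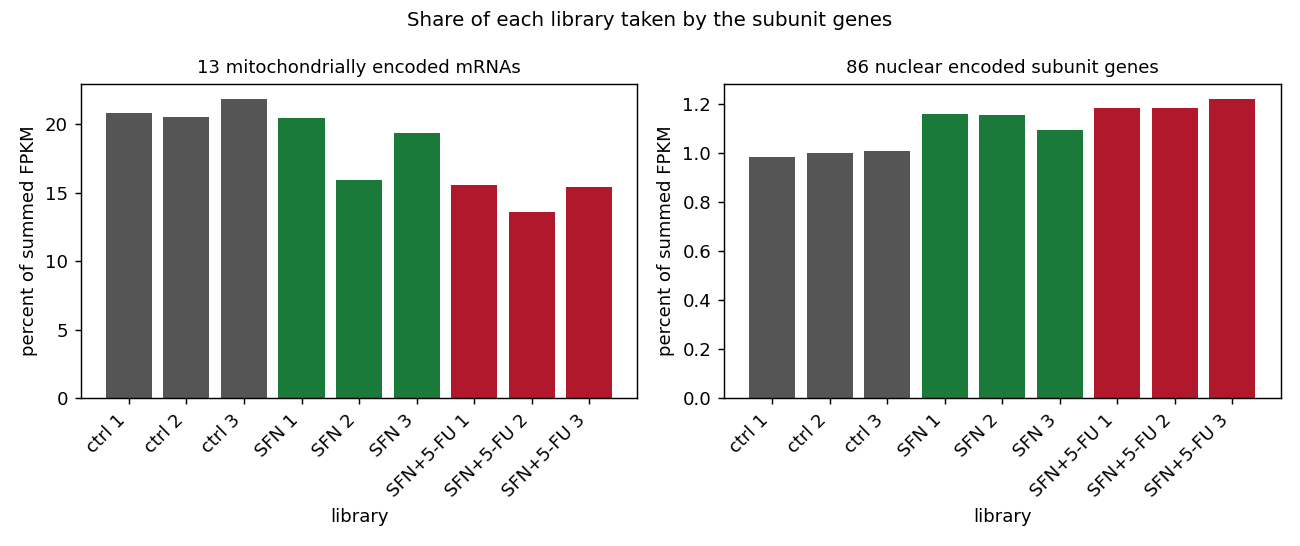
Percent of the summed FPKM of each library (y axis, from 0) held by the 13 mitochondrially encoded mRNAs (left) and by the 86 nuclear encoded subunit genes (right). Each bar is 1 library; SFN replicate 2 and the SFN+5-FU libraries are the 4 lowest bars on the left, and the control libraries are the 3 lowest on the right.

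Among the mitochondrial mRNAs the largest fall was that of MT-ATP6, subunit a of the ATP synthase proton channel. It was at 5327, 5385 and 5871 FPKM in control, 5696, 3751 and 4983 in SFN replicates 1, 2 and 3, and 3633, 2892 and 3575 in SFN+5-FU. The SFN+5-FU libraries and SFN replicate 2 lay below all control libraries, while SFN replicates 1 and 3 lay among or just below them. MT-ATP6 fell by 0.72 in SFN+5-FU (SE 0.148, adjusted p = 0.00227). MT-ATP8, whose reading frame overlaps that of MT-ATP6, was at 6047 ± 384 FPKM in control and 3774 ± 310.2 in SFN+5-FU (mean ± SD, n = 3) and fell by 0.68. Reads in the overlap cannot be assigned to one of the pair.

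MT-CO1 and MT-CO2, core subunits of complex IV, had the highest mean FPKM of the 13. MT-CO1, which encodes the subunit that holds the oxygen-reducing site, was at 9531, 9351 and 9559 FPKM in control, 8472, 7837 and 7873 in SFN and 7534, 6316 and 7514 in SFN+5-FU. All 6 treated libraries lay below the control libraries. MT-CO1 fell by 0.23 in SFN (adjusted p = 0.0357) and by 0.42 in SFN+5-FU (adjusted p = 0.00156). MT-CO2, which receives electrons from cytochrome c, fell by 0.26 and 0.49 (adjusted p = 0.0397 and 0.00119), and all 6 treated libraries were again below the control range. Without SFN replicate 2 the SFN changes of MT-CO1 and MT-CO2 were -0.22 and -0.18, no longer past the threshold (adjusted p = 0.0542 and 0.0751), and neither passed when any one control library was left out. MT-CO3, the third core subunit, fell by 0.61 in SFN+5-FU, from 5693 ± 520.3 to 3740.1 ± 342 FPKM.

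Of the 7 complex I mRNAs, 5 fell in SFN+5-FU. MT-ND4 and MT-ND4L, proton-pumping subunits whose mRNAs are made as one overlapping transcript, fell by 0.63 and 0.65 in SFN+5-FU. MT-ND4 was at 5779, 5486 and 5776 FPKM in control, 5843, 4074 and 5611 in SFN and 3783, 3403 and 3809 in SFN+5-FU, so that SFN replicate 2 lay below the control range and the other SFN libraries lay within or above it. MT-ND2 and MT-ND5 fell by 0.39 and 0.33. MT-ND3 had a change of -0.33 (adjusted p = 0.0682) and passed the threshold without SFN replicate 2 (adjusted p = 0.0037). In SFN itself MT-ND3 was at 910.1, 594 and 812 FPKM, high in replicates 1 and 3 and low in replicate 2, against 708, 666 and 744 in control. Without replicate 2 it rose by 0.28 (adjusted p = 0.0184).

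MT-ND1 had the smallest fitted change of the 13 in SFN+5-FU. This quinone-site subunit is the first coding region after the ribosomal RNAs in genome order. It was at 2184, 2154 and 2315 FPKM in control, 2217, 2388 and 2225 in SFN and 2179.7, 1939.9 and 2306 in SFN+5-FU, and the groups overlap. Its change in SFN+5-FU was -0.05 (SE 0.0756, adjusted p = 0.554), or -0.21 with GC content and length corrected for (adjusted p = 0.0388). MT-ND6, the only one of the 13 encoded on the other strand, fell by 0.24 (adjusted p = 0.0307). Its mRNA is known to carry little or no poly(A) tail, which matters in poly(A)-selected libraries. MT-CYB, cytochrome b of complex III, fell by 0.58, from 3503 ± 230.2 to 2345 ± 226 FPKM. A test of the differences between these mRNAs was not made.

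**Figure D3:**
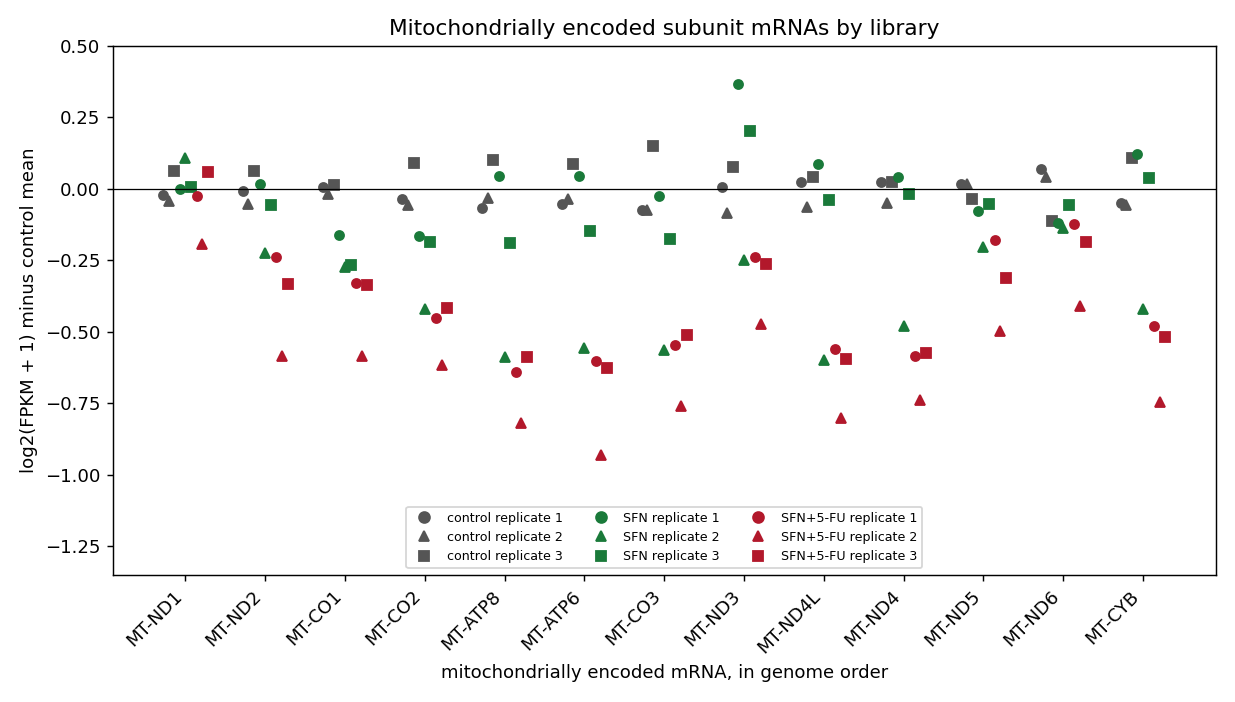
Difference of each library from the control mean on the log2(FPKM + 1) scale (y axis) for the 13 mitochondrially encoded mRNAs in genome order (x axis). Each symbol is 1 library, colour marks the group and shape the replicate number. Green triangles (SFN replicate 2) lie with the SFN+5-FU symbols for MT-ATP8, MT-ATP6, MT-CO3, MT-ND4L, MT-ND4 and MT-CYB, and MT-ND1 stays near 0.

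The mitochondrial ribosomal RNAs, encoded ahead of MT-ND1 on the same strand, gave another picture. MT-RNR2, the large ribosomal RNA, was at 2904, 2915 and 2427 FPKM in control, 1555, 3219.7 and 1692 in SFN and 3284, 2796 and 2982 in SFN+5-FU. It was low in SFN replicates 1 and 3 only, and the SFN+5-FU libraries overlapped control. Neither MT-RNR2 nor MT-RNR1, the small ribosomal RNA, passed the threshold in any comparison with all libraries. Ribosomal RNAs are captured poorly by poly(A) selection, so these values are not their true levels. Several rows named for mitochondrial tRNAs had larger fitted falls than the mRNAs in SFN+5-FU: the MT-TR row, between MT-ND3 and MT-ND4L, fell by 1.40 and the MT-TG row, between MT-CO3 and MT-ND3, by 1.35 (adjusted p = 0.000705 and 0.000978). These rows were chosen after their values were seen, and since a tRNA is shorter than a sequenced fragment they are not levels of mature tRNAs.

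Complex I has the most subunits, of which the 7 mitochondrial and 7 nuclear core subunits hold the catalytic parts and the other 30 nuclear ones are accessory. All 37 nuclear genes were tested. In SFN+5-FU 27 rose (median 0.31), beside 38.3% of all genes, and in SFN 17 rose and none fell (median 0.21), beside 27.5% and 22.5%. Of the 30 accessory genes 24 rose in SFN+5-FU (median 0.33).

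NDUFC2, an accessory subunit of the membrane arm, had the largest increase. It was at 14.0, 16.2 and 15.8 FPKM in control, 32.4, 41.7 and 32.2 in SFN and 34.4, 37.6 and 48.6 in SFN+5-FU, with every treated library above the control range. It rose by 1.15 in SFN and 1.32 in SFN+5-FU (adjusted p = 0.000224 and 6.47e-05). The readthrough gene NDUFC2-KCTD14 covers the same exons and was at 36.1, 32.3 and 37.1 FPKM in control, 26.3, 18.8 and 19.7 in SFN and 40.5, 31.9 and 15.9 in SFN+5-FU. How reads were split between the pair is uncertain, and so is the size of the increase of NDUFC2.

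NDUFA6, an accessory subunit at the base of the matrix arm, was at 17.8, 18.6 and 19.4 FPKM in control, 23.9, 33.8 and 22.6 in SFN and 33.9, 35.1 and 34.3 in SFN+5-FU. The groups did not overlap, and SFN replicate 2 lay just under the SFN+5-FU libraries. NDUFA6 rose by 0.86 in SFN+5-FU (adjusted p = 0.000396) and by 0.48 in SFN, or 0.31 without SFN replicate 2. NDUFS5, another accessory subunit, rose by 0.67 in SFN+5-FU, from 40.5 ± 0.934 to 65.0 ± 1.11 FPKM. NDUFS3, a core subunit of the matrix arm, was at 10.8, 10.8 and 10.8 FPKM in control, 17.4, 18.5 and 16.4 in SFN and 17.7, 18.2 and 18.7 in SFN+5-FU. It rose by 0.64 and 0.70 (adjusted p = 7.5e-05 and 2.8e-05), and SFN+5-FU against SFN gave 0.06 (adjusted p = 0.503). NDUFAB1, the mitochondrial acyl carrier protein, rose by 0.46 and 0.43.

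NDUFS1, which holds iron-sulfur clusters, rose by 0.18 in SFN+5-FU (adjusted p = 0.0473), with 8.46 ± 0.459 FPKM in control and 9.73 ± 0.617 in SFN+5-FU, and did not pass with mitochondrial transcripts left out of the total (0.09). NDUFV1, which binds FMN and oxidises NADH, rose by 0.21 in SFN and 0.19 in SFN+5-FU, where its change was 0.08 with mitochondrial transcripts left out of the total and -0.00248 with quantile normalization. NDUFS7, NDUFS8 and NDUFV2, also core genes, had changes of 0.20, 0.16 and -0.01 in SFN+5-FU that did not pass in the main fit. With GC content and length corrected for, NDUFS7 and NDUFS8 rose by 0.32 and 0.27 there (adjusted p = 0.00347 and 0.00306). NDUFA8, the nuclear complex I gene with the highest mean FPKM, rose by 0.20 in SFN and 0.31 in SFN+5-FU, from 76.1 ± 2.31 FPKM in control to 94.5 ± 5.58.

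Among the remaining accessory genes, NDUFA2, NDUFA11, NDUFA1, NDUFA5, NDUFA9, NDUFB3, NDUFB5, NDUFB9, NDUFS6 and NDUFV3 rose in both comparisons with control, by between 0.18 and 0.59 in SFN+5-FU. With GC content and length corrected for, NDUFA5, NDUFA9, NDUFB5 and NDUFV3 no longer passed in SFN+5-FU, with changes of 0.08, 0.07, -0.03 and 0.14. With mitochondrial transcripts left out of the total, NDUFB5 and NDUFS6 passed in neither comparison (0.11 and 0.12 in SFN+5-FU). On that scale NDUFV3 did not pass in SFN+5-FU (0.10) and NDUFA9 did not pass in SFN (0.14). NDUFA3, NDUFA13, NDUFB1, NDUFB2, NDUFB4, NDUFB8, NDUFB11, NDUFC1 and NDUFS4 rose with SFN+5-FU and did not pass with SFN, by between 0.23 and 0.54 in SFN+5-FU. Of these, NDUFB1 and NDUFB4 did not pass with GC content and length corrected for (0.14 and 0.13). NDUFA3 and NDUFB1 did not pass with mitochondrial transcripts left out of the total (0.24 and 0.14). NDUFA10, NDUFA12, NDUFB6, NDUFB7 and NDUFB10 had changes between -0.23 and 0.15 in SFN+5-FU and passed in neither comparison in the main fit. With GC content and length corrected for, NDUFA10 fell by 0.35 and NDUFB7 rose by 0.30 in SFN+5-FU (adjusted p = 0.016 and 0.000872). NDUFA7 ranged from 2.48 to 13.1 FPKM with the groups overlapping, and its log2 fold changes carried an SE of 0.536.

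Complex II, succinate dehydrogenase, is also an enzyme of the citric acid cycle, and its subunits went in different directions. SDHA, the flavoprotein that oxidises succinate, was at 20.4, 20.9 and 18.5 FPKM in control, 18.9, 13.9 and 17.0 in SFN and 13.2, 13.1 and 13.3 in SFN+5-FU. It fell by 0.56 in SFN+5-FU (SE 0.103, adjusted p = 0.00121), where all 3 libraries lay below control, and had a change of -0.26 in SFN (adjusted p = 0.061). SDHD, one of the pair of membrane anchors, was at 26.6, 27.3 and 29.4 FPKM in control, 33.9, 42.1 and 33.4 in SFN and 42.7, 43.6 and 42.2 in SFN+5-FU, and rose by 0.37 and 0.61 (adjusted p = 0.00754 and 0.000359). The treated libraries all lay above control, and SFN replicate 2 lay near the SFN+5-FU libraries. SDHB, the iron-sulfur subunit and the complex II gene with the highest mean FPKM, rose by 0.42 and 0.34, from 29.8 ± 2.08 FPKM to 40.3 ± 1.66 in SFN and 38.0 ± 0.701 in SFN+5-FU. SDHC, the other anchor, was at 36.1, 38.3 and 36.0 FPKM in control, 44.1, 30.2 and 41.7 in SFN and 31.2, 31.7 and 29.4 in SFN+5-FU. Without SFN replicate 2, SDHC rose by 0.22 in SFN and had a change of -0.25 in SFN+5-FU (adjusted p = 0.00834 and 0.00125). In the main fit with all libraries neither change passed (adjusted p = 0.747 and 0.097). With GC content and length corrected for and all libraries kept, SDHC fell by 0.34 in SFN+5-FU (adjusted p = 0.0378).

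The promoters of SDHA and SDHD are shown because these subunits of one enzyme moved in opposite directions while both promoters hold the same motif. Each line gives the 250 bases before the start of the gene in RefSeq (GRCh38.p14), 5′ to 3′ on the strand of the gene: chr5:218070-218319 on the plus strand for SDHA and chr11:112086623-112086872 on the plus strand for SDHD. Capitals mark matches to the core bound by NRF1 (nuclear respiratory factor), which reads GCGCA, any base, GCGC, and to CCGGAAG, the core of ETS factors such as GABP, on either strand.

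SDHA: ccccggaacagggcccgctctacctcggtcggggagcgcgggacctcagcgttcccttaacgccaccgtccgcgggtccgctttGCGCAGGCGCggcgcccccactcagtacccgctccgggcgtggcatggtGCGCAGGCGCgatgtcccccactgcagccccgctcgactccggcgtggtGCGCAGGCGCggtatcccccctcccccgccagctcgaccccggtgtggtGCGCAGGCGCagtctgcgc

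SDHD: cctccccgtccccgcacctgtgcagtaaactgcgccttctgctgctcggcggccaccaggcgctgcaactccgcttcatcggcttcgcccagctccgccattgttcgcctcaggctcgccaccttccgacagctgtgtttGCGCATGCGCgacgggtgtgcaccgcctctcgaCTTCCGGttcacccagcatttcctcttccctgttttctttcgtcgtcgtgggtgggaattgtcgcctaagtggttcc

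SDHA held 4 NRF1 matches, with first bases 166, 117, 68 and 19 bases before the start. SDHD held 1 NRF1 match, a palindrome with its first base 110 bases before the start, and 1 ETS match on the other strand. Of the 86 nuclear subunit genes, 68 had a promoter in the RefSeq table. An NRF1 match was found in 22.1% of these, against 5.5% of all 27305 promoters of that length, and an ETS match in 25.0% against 8.8%. CCAAT was found in 32.4% against 33.0%, ACGTG, the core of the hypoxia response element, in 22.1% against 18.7%, and AANATGGCG, the core of YY1, in 2.9% against 1.4%. Both strands were searched, and no motif overlapped another in SDHA or SDHD. Over all genes tested, 38.3% rose and 28.0% fell in SFN+5-FU. Of the 14 tested genes with an NRF1 match, 7 rose and 3 fell in that comparison (median 0.22), and of the 52 without one 35 rose and 3 fell (median 0.28). Of the 17 with an ETS match 15 rose and none fell (median 0.32), and of the 49 without one 27 rose and 6 fell (median 0.22). Of the 21 with CCAAT 16 rose and 1 fell (median 0.31), and of the 45 without it 26 rose and 5 fell (median 0.25). Of the 15 with ACGTG 7 rose and 1 fell (median 0.20), and of the 51 without it 35 rose and 5 fell (median 0.28). Only 2 tested genes held a YY1 match, of which 1 rose. These counts are a description: a match is not a bound site, and none of these differences was tested.

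Complex III passes electrons from coenzyme Q to cytochrome c. Of its 9 tested nuclear genes 5 rose and 1 fell in SFN+5-FU (median 0.20), beside 38.3% and 28.0% of all genes. In SFN 3 rose and none fell (median 0.20), a share of rises near the 27.5% of all genes. Without SFN replicate 2 these were 5 and none (median 0.27), beside 30.0% and 26.9%. The small subunits UQCR11, UQCR10, UQCRB and UQCRH rose by 0.52, 0.49, 0.45 and 0.32 in SFN+5-FU, and UQCRQ did not pass (0.11). With GC content and length corrected for, UQCRB and UQCRH no longer passed (0.17 and 0.18, adjusted p = 0.101 and 0.0699). UQCR11 was at 17.7, 17.7 and 18.3 FPKM in control, 23.9, 25.9 and 22.7 in SFN and 26.4, 25.5 and 26.7 in SFN+5-FU, with all treated libraries above control (adjusted p = 0.000773 and 0.000126). UQCRHL, an intronless relative of UQCRH, was below the filter of a mean FPKM of 1, at 0.58 to 1.17 FPKM.

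The large core proteins, UQCRC1 and UQCRC2, had negative changes in SFN+5-FU. UQCRC1, the complex III gene with the highest mean FPKM, was at 109.5, 112 and 108 FPKM in control, 108, 86.8 and 97.3 in SFN and 87.7, 89.5 and 95.8 in SFN+5-FU, where it fell by 0.27 (adjusted p = 0.0138). UQCRC2 was at 20.8, 21.4 and 21.3 FPKM in control, 25.1, 18.8 and 26.4 in SFN and 17.7, 18.6 and 19.2 in SFN+5-FU: high in SFN replicates 1 and 3, and below control in SFN replicate 2 and in SFN+5-FU. Its changes did not pass in the main fit with all libraries (0.13 and -0.19). Without SFN replicate 2 they were 0.27 in SFN and -0.19 in SFN+5-FU (adjusted p = 0.00203 and 0.00509). With GC content and length corrected for and all libraries kept, UQCRC2 fell by 0.35 in SFN+5-FU (adjusted p = 0.0286). UQCRFS1, the Rieske iron-sulfur protein, behaved alike in SFN, at 38.1, 27.4 and 37.1 FPKM against 30.0, 30.9 and 31.3 in control, and its change in SFN+5-FU was -0.10 (adjusted p = 0.451). CYC1, cytochrome c1, rose by 0.26 in SFN and 0.20 in SFN+5-FU (adjusted p = 0.0159 and 0.0356), and by neither with mitochondrial transcripts left out of the total (0.19 and 0.10, adjusted p = 0.0605 and 0.275).

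Complex IV has tissue-specific isoforms of several subunits, and of its 17 nuclear genes 13 were tested. In SFN+5-FU 7 rose and 1 fell (median 0.26), beside 38.3% and 28.0% of all genes. In SFN 3 rose and 1 fell (median 0.18), no larger a share of rises than the 27.5% of all genes. COX7B, a small membrane subunit, was at 17.8, 17.9 and 20.6 FPKM in control, 24.4, 30.5 and 23.4 in SFN and 31.3, 33.3 and 30.4 in SFN+5-FU, and rose by 0.45 and 0.73 (adjusted p = 0.0062 and 0.000299). NDUFA4 rose by 0.59 in SFN+5-FU, from 36.2, 38.0 and 42.0 FPKM in control to 56.6, 57.5 and 62.4, and its change in SFN was 0.29 (adjusted p = 0.051). COX6A1, COX5B and COX8A, the last with the highest mean FPKM of the nuclear complex IV genes, rose by 0.49, 0.45 and 0.31 in SFN+5-FU. COX6A1 was at 102, 99.8 and 99.0 FPKM in control, 107, 133 and 105 in SFN and 139.5, 138 and 145 in SFN+5-FU. COX8A was at 273 ± 13.3 FPKM in control and 339.5 ± 29.3 in SFN+5-FU. COX7A2 rose by 0.26 (0.15, not past the threshold, with mitochondrial transcripts left out of the total), while COX4I1, the ubiquitous isoform of the regulatory subunit IV, was at 30.4 ± 0.382, 32.0 ± 0.318 and 32.2 ± 1.36 FPKM in the 3 groups and passed in neither comparison (0.07 and 0.08). COX5A, COX6C, COX7C and COX7A2L, the last known as a supercomplex factor, had changes of 0.15, 0.07, 0.14 and -0.15 in SFN+5-FU that did not pass in the main fit. COX7A2L fell by 0.37 there with GC content and length corrected for (adjusted p = 0.00437).

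The isoforms of subunit VIb differed in direction. COX6B1, the general isoform, was at 67.2, 68.9 and 71.1 FPKM in control, 80.4, 81.9 and 78.1 in SFN and 80.4, 83.2 and 84.7 in SFN+5-FU and rose by 0.21 and 0.26 (adjusted p = 0.00903 and 0.00219). COX6B2, known as a testis isoform, was at 2.82, 2.72 and 2.49 FPKM in control, 0.68, 0.78 and 0.45 in SFN and 0.48, 0.46 and 0.59 in SFN+5-FU. It fell by 1.17 and 1.28 (adjusted p = 3.21e-05 and 1.32e-05), and all treated libraries were at or below 0.78 FPKM against at least 2.49 in control. This gene passed the filter only through its level in control, so it had to differ, and its level was far below that of COX6B1 in all groups. NDUFA4L2, a paralog of NDUFA4 known to be induced by hypoxia, was below the filter, at 0.64, 0.87 and 0.49 FPKM in control, 0.29, 0.27 and 0.28 in SFN and 0.07, 0.26 and 0.19 in SFN+5-FU. Its treated libraries all lay under the control libraries, a difference that was not tested. COX7A1, the heart and muscle form, stayed at or below 0.19 FPKM, COX7B2 at or below 0.32 and COX8C at or below 0.05 FPKM.

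Complex V makes ATP in its F1 head, which is joined by a central and a peripheral stalk to a membrane part with the c-ring. Of its 17 tested nuclear genes 9 rose and 4 fell in SFN+5-FU (median 0.20), beside 38.3% and 28.0% of all genes, so that the share of falls was not above that of all genes. In SFN 9 rose and 2 fell (median 0.28), beside 27.5% and 22.5%. Of the 5 tested small membrane subunits, 5 rose in SFN (median 0.44) and 4 in SFN+5-FU (median 0.65). ATP5MK, a small subunit linked to dimers of the enzyme, was at 23.7, 22.6 and 26.5 FPKM in control, 33.8, 40.4 and 33.5 in SFN and 43.3, 43.0 and 41.5 in SFN+5-FU. All treated libraries lay above control, and ATP5MK rose by 0.54 and 0.79 (adjusted p = 0.000916 and 7.79e-05). ATP5MG, ATP5MJ and ATP5MF rose by 0.66, 0.65 and 0.26 in SFN+5-FU, and ATP5ME by 0.28 in SFN with 0.20 in SFN+5-FU (adjusted p = 0.0649). ATP5MG went from 10.9 ± 0.475 FPKM in control to 15.1 ± 1.25 in SFN and 17.7 ± 0.756 in SFN+5-FU. ATP5MGL, a relative of ATP5MG, was listed at 0 in all libraries.

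The promoter of ATP5MK, the nuclear complex V gene with the largest increase, is shown as an example of the ETS matches. It lies at chr10:103396476-103396725 on the minus strand (250 bases before the start, RefSeq, GRCh38.p14). Capitals mark an ETS match on each strand, which overlap each other, and no NRF1 match was found in this promoter. It also holds 1 CCAAT, which is not marked.

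ATP5MK: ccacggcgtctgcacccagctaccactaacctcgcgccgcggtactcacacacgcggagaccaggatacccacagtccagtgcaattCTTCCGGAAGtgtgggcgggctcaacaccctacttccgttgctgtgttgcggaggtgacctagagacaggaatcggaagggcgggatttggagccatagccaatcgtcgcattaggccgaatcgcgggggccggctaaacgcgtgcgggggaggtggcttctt

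The F1 head was lower in SFN+5-FU for 3 of its 5 genes and higher for 1, beside 28.0% and 38.3% of all genes. ATP5F1A, the alpha subunit, was at 19.9, 20.5 and 21.4 FPKM in control, 19.0, 16.9 and 18.4 in SFN and 17.1, 17.2 and 16.8 in SFN+5-FU, and all treated libraries lay below control. It fell by 0.18 in SFN and 0.26 in SFN+5-FU (adjusted p = 0.0378 and 0.00498). ATP5F1C and ATP5F1D, the gamma and delta subunits of the central stalk, fell by 0.21 and 0.24 in SFN+5-FU (adjusted p = 0.0157 and 0.0491). With GC content and length corrected for, ATP5F1D did not pass and its changes were 0.20 in SFN and -0.07 in SFN+5-FU (adjusted p = 0.551 in the latter). ATP5F1E, the epsilon subunit, rose by 0.32 and 0.42. ATP5F1B, the catalytic beta subunit and the nuclear subunit gene with the highest mean FPKM, was at 405 ± 9.19, 451 ± 48.5 and 416 ± 2.82 FPKM in the 3 groups, with no change past the threshold (0.15 and 0.04). Without SFN replicate 2 it rose by 0.21 in SFN (adjusted p = 0.0204). In the peripheral stalk ATP5PB, ATP5PF and ATP5PD rose by 0.49, 0.22 and 0.19 in SFN+5-FU, and ATP5PO did not pass (0.08). ATP5PF and ATP5PD did not pass with GC content and length corrected for (0.05 and 0.04).

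The 3 genes of the c subunit, which forms the rotor ring, encode the same mature protein behind different import signals, and 1 rose, 1 fell and 1 did not pass. ATP5MC1 was at 13.8, 14.8 and 14.9 FPKM in control, 20.5, 23.5 and 18.6 in SFN and 24.0, 22.1 and 22.7 in SFN+5-FU and rose by 0.49 and 0.63 (adjusted p = 0.00147 and 0.000235). ATP5MC2 was at 25.5, 24.6 and 24.7 FPKM in control, 18.0, 18.8 and 16.1 in SFN and 18.0, 17.8 and 17.6 in SFN+5-FU and fell by 0.48 and 0.46 (adjusted p = 0.000437 and 0.000321). For both, no treated library lay in the control range. ATP5MC3 was at 27.7, 27.7 and 28.7 FPKM in control, 30.4, 25.9 and 29.1 in SFN and 27.4, 26.9 and 29.5 in SFN+5-FU, with changes of 0.02 and -0.01 that did not pass. In control ATP5MC2 was above ATP5MC1 in FPKM, a scale per length, and in all 6 treated libraries it was below ATP5MC1.

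**Figure D4:**
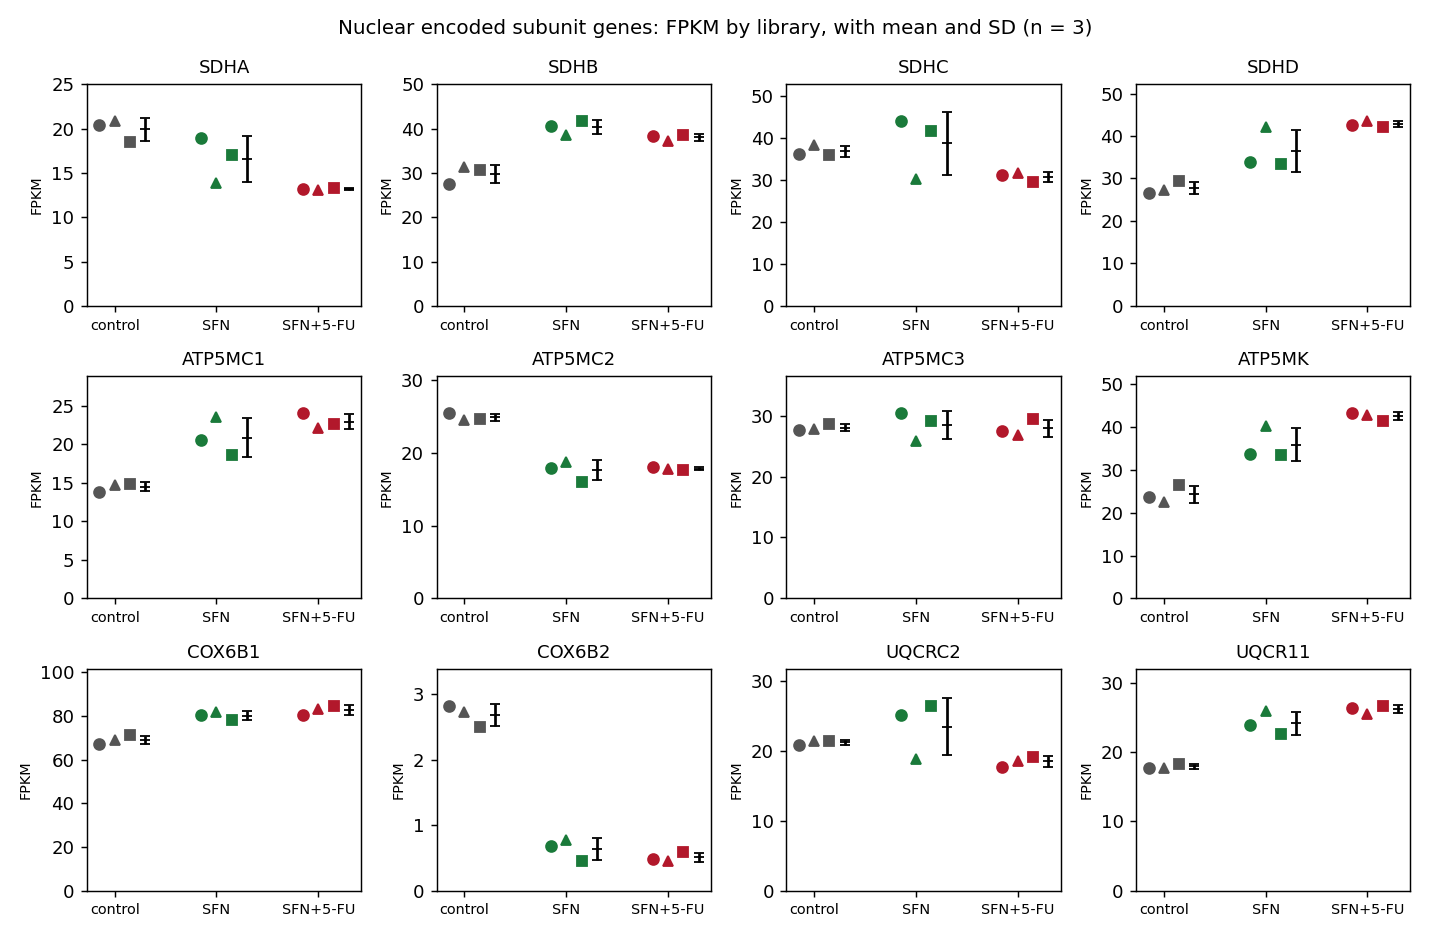
FPKM (y axis, from 0) of 12 nuclear subunit genes in the 3 libraries of each group, with the mean and SD of the group (n = 3) beside the points; shape marks the replicate number. SDHA, ATP5MC2 and COX6B2 are lower in SFN+5-FU than in control, SDHB, SDHD, ATP5MC1, ATP5MK, COX6B1 and UQCR11 are higher, and SFN replicate 2 (triangle) lies with SFN+5-FU for SDHA, SDHC, SDHD, ATP5MK and UQCRC2.

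The comparison of SFN+5-FU with SFN rests on SFN replicate 2. The sulforaphane dose of SFN+5-FU is not stated, so added 5-FU cannot be told apart from a change in that dose. With all libraries no subunit gene passed in limma (36 of 93 at an unadjusted p under 0.05), and of all genes 0.0% rose and 0.0079% fell. With library weights, an alternative that gives a library that departs from its group less weight, 57 subunit genes passed: 35 nuclear genes rose and 12 fell, and 10 mitochondrial mRNAs fell, against 33.4% and 25.3% of all genes. SFN replicate 2 was singled out from these same values by its likeness to SFN+5-FU, so leaving it out widens this comparison by construction. The library weights were estimated from these same values too, so a lower weight for SFN replicate 2 widens the comparison in the same way. The fit without SFN replicate 2 keeps SFN replicates 1 and 3 only. The counts of both fits are a description. Without SFN replicate 2, 10 mitochondrial mRNAs fell (median -0.51) and 25 nuclear genes rose and 11 fell (median 0.10), against 29.8% and 21.4% of all genes. MT-ND4L, MT-ATP6 and MT-CYB fell by 0.68, 0.67 and 0.66 in that fit (adjusted p = 0.000244, 0.000983 and 0.000396). NDUFA6, NDUFA4 and COX6A1 rose by 0.55, 0.43 and 0.41. SDHC and UQCRC2 fell by 0.47 and 0.46. With all libraries the changes of MT-ATP6, NDUFA6 and UQCRC2 were -0.50, 0.37 and -0.31 (adjusted p = 0.134, 0.134 and 0.134). Whether this library carries its right label was not tested.

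The genes that build and serve the chain were followed with lists chosen by function. Each count is of tested genes in SFN and SFN+5-FU against control, beside 27.5% and 38.3% of all genes higher and 22.5% and 28.0% lower. Of 21 complex I assembly genes, 14 rose and none fell in SFN, and 14 rose and 2 fell in SFN+5-FU. NDUFAF8 and NDUFAF4 rose by 1.32 and 1.03 in SFN+5-FU, NDUFAF8 from 13.2, 13.5 and 15.7 FPKM to 34.7, 36.4 and 39.0. Of 3 complex II assembly genes 2 and 3 rose, with SDHAF2, which helps to attach the flavin to SDHA, at 1.08. Of 10 complex III assembly genes 7 and 8 rose and 1 fell in each case, the processing factor gene TTC19 by 0.72 in SFN+5-FU. BCS1L, which inserts the Rieske protein, rose by 0.82. Of 25 complex IV assembly genes 15 and 18 rose and 1 and 2 fell, with FDX2, COA8 and COA7 at 1.33, 1.13 and 1.08 in SFN+5-FU. Of 6 complex V genes outside the enzyme 2 and 3 rose and 1 and 2 fell, and the assembly factor ATPAF2 fell by 0.55, while ATP5IF1, the inhibitor of ATP hydrolysis, rose by 0.42.

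Of 33 genes that act on the mitochondrial genome and its RNA, 22 rose and 1 fell in SFN (median 0.37), and 22 rose and 2 fell in SFN+5-FU (median 0.44). TFB2M, a transcription factor that opens mitochondrial promoters, was at 7.79, 7.61 and 8.42 FPKM in control, 12.4, 21.2 and 15.4 in SFN and 21.6, 21.9 and 19.99 in SFN+5-FU, and rose by 1.31 (adjusted p = 0.000104). TWNK, the replicative helicase, rose by 1.11 and MTERF1, a termination factor, by 0.88. Of 9 nuclear regulators 3 and 5 rose and 1 fell in each case: the coactivator gene PPRC1 rose by 1.38, GABPB1, a subunit of the ETS factor GABP, by 0.76 and the nuclear receptor gene ESRRA by 0.46 in SFN+5-FU.

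Of 14 citric acid cycle genes outside complex II 6 and 4 rose and 1 and 2 fell, and IDH2, the NADP-dependent isocitrate dehydrogenase, fell by 1.22 in SFN+5-FU, while IDH3A rose by 0.70. Of 19 genes of electron carriers and coenzyme Q synthesis 5 rose and 2 fell in each case, ETFB, an electron transfer flavoprotein, falling by 0.94 and PDSS1, of coenzyme Q side chain synthesis, rising by 0.96. Of 19 channel and import genes 12 and 10 rose and 2 fell in each case, with the import pore gene TOMM40 rising by 0.87 and the ADP/ATP carrier gene SLC25A6 falling by 0.83. Of 7 tested hypoxia-linked mitochondrial genes 3 rose in each case and 1 and 3 fell. BNIP3L, a mitophagy receptor, LONP1, a protease of the matrix, and PDK1, which limits pyruvate entry, fell by 1.33, 0.84 and 1.06 in SFN+5-FU. LONP1 was at 37.9, 38.3 and 34.2 FPKM in control, 35.6, 21.5 and 34.0 in SFN and 20.8, 19.6 and 20.1 in SFN+5-FU, with SFN replicate 2 again next to the combined treatment.

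Some limits apply to single genes. In the GENCODE release 29 annotation 17 nuclear members overlap another protein-coding gene on the same strand. Among them are NDUFA13, NDUFS3, NDUFC2, SDHD, UQCR11, COX6A1, COX6B2, COX8A and ATP5MG. On the opposite strand 25 nuclear members overlap a protein-coding gene. How reads in such overlaps were shared is not given in the sources used here. A correction for GC content and length moved several calls. In SFN+5-FU 13 member calls were lost and 10 gained with it, and 42 nuclear genes rose and 11 fell, against 35.4% and 31.4% of all genes. In SFN 6 calls were lost and 8 gained, and 33 nuclear genes rose and 6 fell, against 26.8% and 24.6%. NDUFS1 and COX7A2 were also among the calls lost in SFN+5-FU, and NDUFA8, ATP5F1E and ATP5PF among those lost in SFN. Gained in SFN+5-FU were MT-ND1, MT-ND3, NDUFA10, NDUFB7, NDUFS7, NDUFS8, SDHC, UQCRC2, COX7A2L and ATP5ME. In SFN the gains were NDUFA13, NDUFB7, NDUFB11, NDUFS7, SDHA, COX7A2L, COX8A and ATP5F1C. Across the 80 tested nuclear genes Spearman's rho of the log2 fold change was -0.11 with length and -0.10 with GC content in SFN, and -0.13 and -0.14 in SFN+5-FU. With the correction, rho with length was -0.16 in SFN and -0.22 in SFN+5-FU. These are descriptions across genes that share the same libraries.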

How the data were processed

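The deposited table gives FPKM per gene for 9 libraries. The submitters' processing notes name fastp, StringTie and edgeR, with no role given. No source used here gives the aligner or the genome build. The FPKM values were made by the authors, and are relative to transcript length and to each library's total. Summed FPKM ran from 259184 to 272235 per library. Since the depth is unknown, no count test was used and no sampling interval is given.

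The members and lists were chosen with earlier results of these data known. Symbols were matched by gene ID for 41002 of 41041 rows. Genes with a mean of at least 1 FPKM over the 9 libraries (12662) were tested on log2(FPKM + 1) with limma 3.58.1 in R 4.3.3, with a mean-variance trend and 3 group means fitted together. The p-values were adjusted by Benjamini-Hochberg over all genes in each comparison, with a threshold of 0.05. The residual degrees of freedom were 6. The fit was also run on simulated data with independent noise for each gene. No simulated library was made to depart from its group as SFN replicate 2 does, so that case is not covered.

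Named in detail were the 13 mitochondrial genes, the most abundant nuclear gene and up to 4 largest called changes of each complex, isoform pairs, chosen core subunits and up to 3 called genes per list. SDHC, UQCRC2, NDUFAB1 and other members described beyond this rule were chosen after their values were seen. A nuclear member counted in the totals is not reported here. The motif search used Python 3.11.15 on RefSeq promoters. Replicate numbers were not taken to pair libraries. Alternatives covered filters, pseudocounts, scalings, weights, a replicate block, GC and length, and leaving out each library.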

Additional observations from a re-analysis of the deposited data

How the results depend on the processing

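The mitochondrial falls in SFN+5-FU and the nuclear rises in both comparisons kept their direction in the median under every alternative run. With quantile normalization the mitochondrial median was -0.0825 in SFN+5-FU with 4 genes past the threshold, none passed in SFN, and against SFN the medians were -0.0833 (mitochondrial) and 0.0176 (nuclear). This method gives equal ranks equal values. The nuclear median in SFN was 0.15 with a pseudocount of 5, 0.13 with median-of-ratios scaling, 0.11 with quantile normalization, 0.13 with the total without mitochondrial transcripts and 0.15 with GC and length correction. In SFN+5-FU it was 0.20, 0.15, 0.14, 0.15 and 0.21 under the same settings, and the mitochondrial median was -0.65 with the GC and length correction. NDUFV1 reversed with quantile normalization (-0.00248, adjusted p = 0.971). A filter at a mean of 5 FPKM, which tests fewer genes, left 3888 and 4903 genes called in SFN and SFN+5-FU.

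In SFN, where 2 mitochondrial mRNAs were called, 0 passed with no filter and 1 with only the 6 libraries compared, and leaving out 1 library gave between 0 (each control library) and 4 (SFN replicate 1). In SFN+5-FU against SFN, library weights, which are estimated from these same values, gave 7432 genes, 10 mitochondrial and 47 nuclear members. With only the 6 libraries compared 0 genes passed. Leaving out 1 library gave 0 to 6478 genes, 0 to 10 mitochondrial and 0 to 36 nuclear members, with mitochondrial medians from -0.51 to -0.24. The highest of these counts and the lowest median came without SFN replicate 2, the library singled out from these same values. Why that library departs from its group was not tested.

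Deviations from the group mean correlated between -0.143 and 0.107 for same-numbered libraries, above 0.1 in 1 of 9 pairs. For differently numbered libraries they correlated between -0.247 and 0.182. Deviations within a group of 3 sum to 0, so these values cannot decide whether replicate numbers pair the libraries. With the replicate block 0 genes passed in SFN+5-FU against SFN, and 36 and 65 members passed in SFN and SFN+5-FU against control in place of 39 and 69. The depth is unknown, so how far counting error limits the low genes is unknown.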

Other observations

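Rows named for mitochondrial tRNAs and lying between the mRNAs were not among the subunit genes. They are given as values, chosen after those values were seen, and a tRNA is shorter than a sequenced fragment, so that they are not levels of mature tRNA. MT-TH, MT-TS2 and MT-TL2, which lie together after MT-ND4, fell in SFN+5-FU, with changes against control of -1.13, -1.21 and -1.26 on the log2(FPKM + 1) scale (limma). The MT-TH row was at 160.7, 155 and 149 FPKM in control, 167, 83.7 and 144 in SFN and 74.6, 61.5 and 74.7 in SFN+5-FU, with SFN replicate 2 next to the combined treatment. The rows of the tRNA cluster encoded on the other strand, MT-TA, MT-TN, MT-TC and MT-TY, fell in SFN by 0.35, 0.37, 0.38 and 0.43, with all 3 SFN libraries below the control range, SFN replicate 2 included. Their changes in SFN+5-FU were -0.31, -0.33, -0.33 and -0.49. Whether the rows differ from each other was not tested.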
